A study of Mus musculus with 12 samples.

Results

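PPAR-alpha is the nuclear receptor, encoded by Ppara, that switches on fatty acid burning in the liver, and chromatin around Ppara and 7 genes known as its targets was followed in mouse hepatocytes. The 8 genes were chosen by function: Ppara itself, Cpt1a, Acadm, Ehhadh, Cyp4a14, Pdk4, Fgf21 and Angptl4. A region belonged to a gene when a peak of accessible chromatin overlapped the gene's span or lay within 20 kb of it. Joined over 12 libraries, the peaks gave 192 regions around the 8 genes, of which 103 were held by at least 3 libraries and were tested, out of 138538 regions tested in the whole genome. The other 89 were held by fewer libraries and were not tested.

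PPAR-alpha works as a pair with the retinoid X receptor, and the pair binds DNA at a direct repeat of the hexamer AGGTCA with a single base between the copies (DR1). Fatty acids released in fasting activate it. Its targets in hepatocytes move fatty acids into mitochondria and peroxisomes, oxidise them there, spare glucose, and release hormones that report the fasted state to other tissues.

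The assay was ATAC-seq, which tags accessible DNA with a transposase, on hepatocytes separated from the liver by collagenase perfusion. Fbxl5-deleted mice (Alb-Cre/FBXL5F/F) carried floxed Fbxl5 alleles and a Cre driven by the albumin promoter, which is active in hepatocytes. Control mice (FBXL5F/F) carried the same floxed alleles without Cre. Mice of both genotypes ate a diet with 0.1% DDC, a compound that causes cholestasis, or a standard diet, for 2 weeks, and each of the 4 groups had 3 mice and 3 libraries. The sources used here do not say which part of Fbxl5 was removed. Fbxl5 encodes a subunit of the ubiquitin ligase that degrades iron regulatory protein 2. Its span held 2 tested regions, and neither differed between genotypes on DDC (adjusted p = 1.00 for both) or on the standard diet (adjusted p = 1.00 and 0.868 by limma), so the lists offer no check of the genotype labels.

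Each library listed between 137034 and 262080 peaks, and the strongest 137034 of each were used. Libraries 1 and 3 of the Fbxl5-deleted mice on the standard diet stood apart, with 262080 and 260622 listed peaks and a mean log2 fold enrichment of 2.11 and 2.24 in the kept peaks, against 2.35 to 2.62 in the other 10. Start regions of all 8 hepatocyte markers examined (Alb, Ttr, Apoa1, Apob, Hnf4a, Cps1, Cyp2e1 and Tat) were held by 12 of 12 libraries. No start region was held by at least 3 libraries for 5 of 6 macrophage markers (Adgre1, Csf1r, Clec4f, Itgam, Ptprc), for 3 of 6 cholangiocyte markers (Krt19, Krt7, Cftr), for 4 of 6 endothelial markers (Pecam1, Stab2, Lyve1, Cdh5) or for 3 of 6 stellate cell markers (Pdgfrb, Des, Acta2). The other markers had one. Start regions of the stellate markers Lrat, Col1a1 and Reln (mean values 3.23 to 3.28), the cholangiocyte markers Epcam and Sox9 and the endothelial markers Kdr and Fcgr2b were held by 12 of 12 libraries, that of the macrophage marker Cd68 by 9 and that of the cholangiocyte marker Spp1 by 6.

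The value given below for a region is a log2 fold enrichment read from the rank of its strongest peak within a library, on a scale common to all libraries. A region absent from a library's list took the lowest value, 1.27. Over all tested regions the mean of 12 libraries had a lower quartile of 1.49, a median of 1.99 and an upper quartile of 2.94. In bulk nuclei, fewer cells with a region open and less opening per cell cannot be told apart.

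The promoters of 4 of these genes are shown because the receptor's hexamer occurs in 2 of them and because their level of accessibility differed from gene to gene. RefSeq promoter windows (GRCm38.p6, from 250 bases before to 50 bases after the promoter's own start position, printed 5′ to 3′ on the gene's strand) were given for 6 of the 8 genes. Motif positions are counted from that position, and distances of regions from the start of the gene's span. For Ppara (chr15:85734910) and Cpt1a (chr19:3322326) the start of the span lies upstream of the whole window. Capitals mark matches to AGGTCA or to the DR1 form AGGTCANAGGTCA with at most 3 mismatches outside the spacer, on either strand. The Acadm window is chr3:153944594-153944893 on the minus strand, that of Cpt1a is chr19:3323051-3323350 on the plus strand, that of Ppara is chr15:85735526-85735825 on the plus strand, and that of Fgf21 is chr7:45615441-45615740 on the minus strand.
Acadm: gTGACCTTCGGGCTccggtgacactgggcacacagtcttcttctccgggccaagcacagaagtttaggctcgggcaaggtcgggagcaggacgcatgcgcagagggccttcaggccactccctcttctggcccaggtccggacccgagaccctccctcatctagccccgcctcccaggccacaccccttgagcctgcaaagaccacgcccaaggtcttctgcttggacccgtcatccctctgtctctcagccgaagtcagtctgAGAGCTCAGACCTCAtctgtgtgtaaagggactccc
Cpt1a: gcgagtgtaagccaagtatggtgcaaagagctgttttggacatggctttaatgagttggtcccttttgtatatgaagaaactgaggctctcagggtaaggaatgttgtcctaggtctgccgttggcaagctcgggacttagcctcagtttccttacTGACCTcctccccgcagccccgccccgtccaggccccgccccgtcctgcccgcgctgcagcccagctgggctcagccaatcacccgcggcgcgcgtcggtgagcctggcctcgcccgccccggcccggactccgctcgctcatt
Ppara: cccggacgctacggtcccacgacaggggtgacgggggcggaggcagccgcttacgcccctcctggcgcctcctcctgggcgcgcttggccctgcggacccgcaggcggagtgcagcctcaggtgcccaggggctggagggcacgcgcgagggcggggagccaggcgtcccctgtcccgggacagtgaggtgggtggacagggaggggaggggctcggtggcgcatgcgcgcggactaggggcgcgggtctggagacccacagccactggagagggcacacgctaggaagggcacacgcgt
Fgf21: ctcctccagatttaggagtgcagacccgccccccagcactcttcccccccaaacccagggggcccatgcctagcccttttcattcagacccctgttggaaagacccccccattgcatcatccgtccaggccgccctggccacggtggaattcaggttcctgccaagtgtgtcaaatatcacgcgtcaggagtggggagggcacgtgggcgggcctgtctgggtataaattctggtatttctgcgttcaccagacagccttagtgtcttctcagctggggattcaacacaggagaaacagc

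The Acadm window held 1 exact hexamer, at -249 to -244 with the motif on the opposite strand, and 3 DR1 matches, each with 3 mismatches, of which those at 14 to 26 and 16 to 28 overlap each other and that at -249 to -237 overlaps that hexamer. The Cpt1a window held 1 hexamer, at -94 to -89. No such match lay in the windows of Ppara, Ehhadh, Pdk4 or Fgf21. Among 32851 mouse promoter windows of the same length, 16.3% held the hexamer and 24.6% a DR1 match of this quality. The Ppara window had the highest GC content of the 6 (74.7%, with 30 CpG), and that of Fgf21 the lowest (58.0%, with 9 CpG).

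The windows of Ppara, Cpt1a, Acadm, Ehhadh and Pdk4 lay in regions that all 12 libraries held, as did 41.5% of all promoter windows. That of Fgf21 lay in a weak region held by 8 libraries (chr7:45615240-45615652, mean value 1.57), next to a stronger one 543 bp upstream of the gene (chr7:45616033-45616655, mean 3.12). All 12 libraries held that upstream region.

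Around the 8 genes, 63 of the 103 tested regions (61.2%) were held by 12 of 12 libraries, against 44.5% of all tested regions. Their mean values ran from 1.30 to 3.97 with a median of 2.19, and the SD within a group of 3 had a median of 0.19. Of the 103, 49 overlapped the gene itself and 54 lay outside it, 13 of them in the span of another protein-coding gene such as Rasip1 beside Fgf21 or Rab11b beside Angptl4. The most accessible region of the set lay inside Ppara, 51842 bp from its start (chr15:85786752-85787920). Its values were 3.93, 4.14 and 3.87 in Fbxl5-deleted DDC libraries, 3.94, 3.97 and 4.02 in Fbxl5-deleted standard-diet libraries, 3.96, 3.85 and 3.88 in control DDC libraries and 3.97, 4.01 and 4.03 in control standard-diet libraries. The groups overlapped except for the control pair, in which all 3 DDC libraries were slightly lower, and its adjusted p in limma was 0.644 for that pair.

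**Figure D1:**
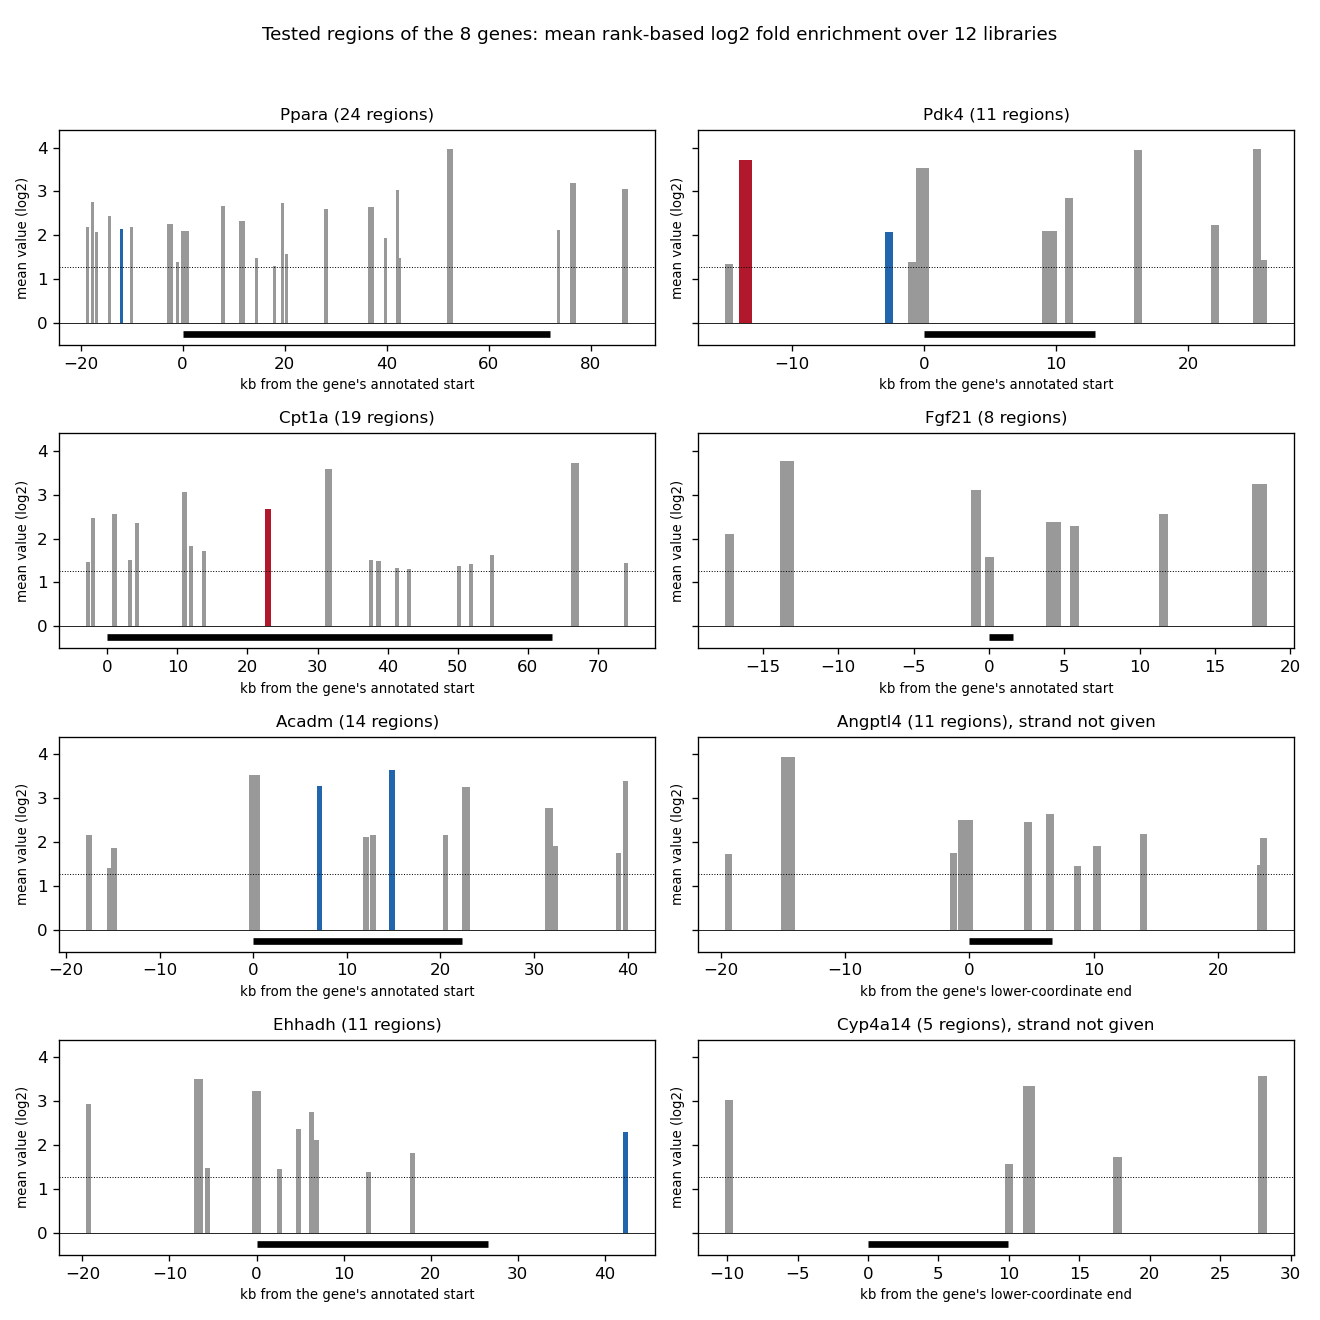
Mean value (rank-based log2 fold enrichment over 12 libraries, vertical axis) of each tested region against its distance in kb from the gene's start (horizontal axis), with the gene's span as a black bar under each panel. For Angptl4 and Cyp4a14, whose strand is not given, the distance is from the lower-coordinate end. Dotted lines mark the lowest value, 1.27. Red bars are regions higher and blue bars regions lower on DDC in at least 1 genotype at an adjusted p under 0.05, grey bars are the others, and narrow regions are drawn wider than they are. Most of the strongest regions, such as that at 51842 bp in Ppara with a mean of 3.97, are grey.

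On the DDC diet a few single regions around these genes moved and most did not. In controls 7 of the 103 regions passed the test, 2 higher and 5 lower on DDC, and in Fbxl5-deleted mice 2 passed, 1 higher and 1 lower. The clearest was a region inside Cpt1a, higher on DDC in both genotypes. The region downstream of Ehhadh was lower on DDC in both genotypes, regions in Acadm and upstream of Ppara were lower in controls, and Pdk4 had 1 region of each kind in controls. No region of Fgf21, Angptl4 or Cyp4a14 passed, and no region of any of the 8 genes passed between genotypes.

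The totals were near the background, and the split by direction rested on 7 regions in controls and 2 in Fbxl5-deleted mice. The 7 regions in controls are 6.80% of the members (1.94% higher and 4.85% lower), and 7.02% of all tested regions passed there (4.66% higher and 2.36% lower). The 2 regions in Fbxl5-deleted mice are 1.94% of the members (0.971% in each direction), and 3.17% of all passed there (2.43% higher and 0.743% lower). At an unadjusted p under 0.05, 19 member regions (18.4%) differed in Fbxl5-deleted mice and 18 (17.5%) in controls, against 17.4% and 21.2% of all tested regions. Median differences on the log2 scale were -0.11 over the members in Fbxl5-deleted mice and -0.06 in controls, and 0.01 and -0.01 over all tested regions. With deposited fold enrichments taken without rank mapping, 3 members were higher and 0 lower in Fbxl5-deleted mice, and 5 were higher and 3 lower in controls. On that scale the median of all tested regions was itself shifted, by 0.17 in Fbxl5-deleted mice and by 0.19 in controls, so the split between directions depended on the scale.

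Mean log2 fold enrichment of the kept peaks moved with the diet. It was 2.41 to 2.49 on DDC and 2.11 to 2.39 on standard diet in Fbxl5-deleted libraries, and 2.45 to 2.62 on DDC and 2.35 to 2.40 on standard diet in controls. With it as a covariate 0 member regions passed in Fbxl5-deleted mice and 3 in controls. Some regions around markers of other liver cells also passed. Of all tested regions 2.43% were higher and 0.743% lower on DDC in Fbxl5-deleted mice, and 4.66% and 2.36% in controls. Of 47 regions of stellate cell markers 3 were higher and 1 lower on DDC in Fbxl5-deleted mice, and 5 were higher and 0 lower in controls. Of 65 endothelial regions 2 were higher and 0 lower in Fbxl5-deleted mice, and 8 were higher and 4 lower in controls. Of 39 macrophage regions 0 passed in Fbxl5-deleted mice, and 2 were higher and 0 lower in controls. The mean over a library's stellate regions was 2.24 to 2.28 in Fbxl5-deleted DDC and 1.99 to 2.12 in Fbxl5-deleted standard-diet libraries, and 2.31 to 2.45 in control DDC and 2.05 to 2.12 in control standard-diet libraries, without overlap. Over its macrophage regions it was 2.06 to 2.15 in Fbxl5-deleted DDC and 1.87 to 2.06 in Fbxl5-deleted standard-diet libraries, and 2.16 to 2.21 in control DDC and 1.98 to 2.03 in control standard-diet libraries. Over its endothelial regions it was 2.46 to 2.48 in Fbxl5-deleted DDC and 2.32 to 2.40 in Fbxl5-deleted standard-diet libraries, and 2.47 to 2.53 in control DDC and 2.34 to 2.36 in control standard-diet libraries. In the hepatocyte and cholangiocyte sets the few regions that passed were lower. Of 131 hepatocyte marker regions 0 passed in Fbxl5-deleted mice and 2 were lower in controls, with median differences of -0.09 in Fbxl5-deleted mice and -0.08 in controls. Their mean in a library was 1.95 to 2.06 in Fbxl5-deleted DDC and 2.04 to 2.17 in Fbxl5-deleted standard-diet libraries, and 1.92 to 2.01 in control DDC and 2.02 to 2.11 in control standard-diet libraries. Of 20 cholangiocyte regions 0 passed in Fbxl5-deleted mice and 2 were lower in controls. The part of these cells in the values of the 8 genes was not tested.

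**Figure D2:**
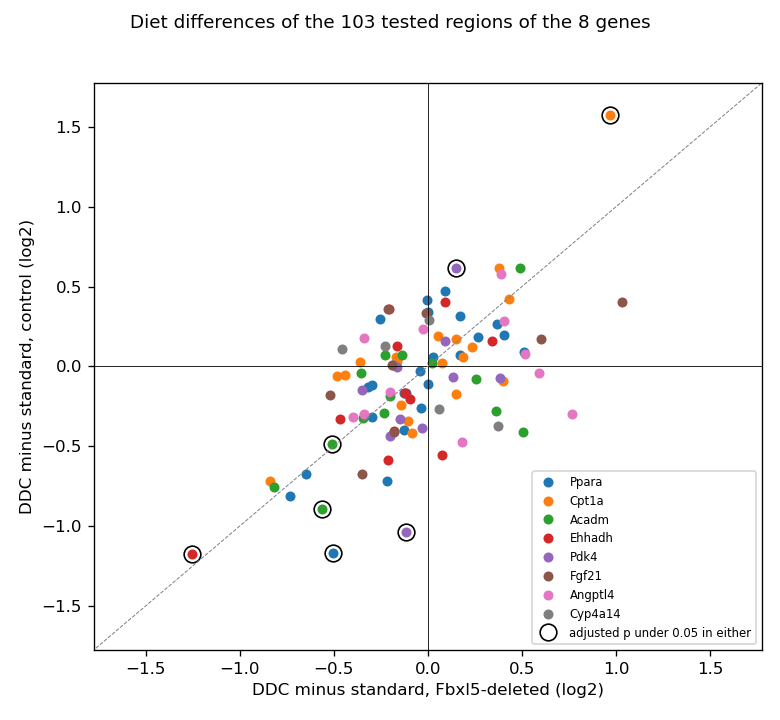
Difference between DDC and standard diet (log2) of each of the 103 tested regions in Fbxl5-deleted mice (horizontal axis) and in controls (vertical axis), coloured by gene. Circles mark the 7 regions with an adjusted p under 0.05 in either genotype and the dashed line marks equal differences. The Cpt1a region stands at the upper right (0.97 and 1.58) and the Ehhadh region at the lower left (-1.25 and -1.17).

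Ppara, the receptor, had 24 tested regions, more than any other of the 8 genes, and 18 of them were held by all libraries. Its start region (chr15:85734535-85736214) was of middling strength, above 53.5% of all tested regions. It had values of 2.40, 2.07 and 2.38 in Fbxl5-deleted DDC libraries and 2.43, 1.90 and 2.53 in Fbxl5-deleted standard-diet libraries. In control DDC libraries it had 2.14, 2.22 and 2.00, against 1.57, 1.74 and 1.79 in control standard-diet libraries. The control standard-diet libraries were the lowest of the 12, without overlap, but the diet difference in controls (0.41 ± 0.25, SE) had an adjusted p of 0.367 in limma, and the genotype difference on the standard diet (0.58 ± 0.25) one of 0.559.

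The Ppara region that passed lay 11707 bp upstream (chr15:85722797-85723203). Its values were 2.04, 1.67 and 1.86 in Fbxl5-deleted DDC libraries against 2.06, 2.39 and 2.63 in Fbxl5-deleted standard-diet libraries. In control DDC libraries they were 1.30, 1.60 and 1.84, against 2.35, 2.83 and 3.07 in control standard-diet libraries. The diets did not overlap in either genotype, and the DDC libraries were the lower ones. The difference in controls was -1.17 ± 0.27 (SE, limma, Benjamini-Hochberg adjusted p = 0.0107) and that in Fbxl5-deleted mice -0.51 ± 0.27 (adjusted p = 0.342), and the 2 differences were not told apart (adjusted p = 0.872). The call in controls was lost without control standard-diet library 3 or control DDC library 1, where the adjusted p was at most 0.0628. It held under 5 of 8 other settings, and with the full lists the difference was -0.76 (adjusted p = 0.168). With those lists the median control difference of all tested regions was itself shifted, to 0.26.

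Cpt1a encodes carnitine palmitoyltransferase 1A, which controls the entry of long-chain fatty acids into mitochondria. Its start region (chr19:3323108-3323610) had group means of 2.34 ± 0.14 in Fbxl5-deleted DDC, 2.82 ± 0.27 in Fbxl5-deleted standard-diet, 2.52 ± 0.14 in control DDC and 2.58 ± 0.13 in control standard-diet libraries (SD, n = 3 each). It did not pass in either genotype, with adjusted p-values of 0.263 and 0.916 for the diet. Of 19 tested regions around the gene, 7 were held by all libraries.

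The region that passed lay inside Cpt1a, 22549 bp from its start (chr19:3344875-3345742), and the annotation used gives the gene's span without exons. It had values of 3.25, 3.48 and 3.13 in Fbxl5-deleted DDC libraries, against 2.04, 2.24 and 2.68 in Fbxl5-deleted standard-diet libraries. The corresponding values were 3.52, 3.12 and 3.33 in control DDC libraries, against 1.48, 2.12 and 1.64 in control standard-diet libraries. Every DDC library was above every standard-diet library. The authors' own fold enrichment there was 8.70 to 11.4 in Fbxl5-deleted DDC and 3.35 to 5.63 in Fbxl5-deleted standard-diet libraries, and 10.5 to 11.9 in control DDC and 2.66 to 4.26 in control standard-diet libraries.

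The diet difference at this Cpt1a region was 0.97 ± 0.24 in Fbxl5-deleted mice (SE, limma, adjusted p = 0.0291) and 1.58 ± 0.24 in controls (adjusted p = 0.000382). In controls it passed with each library left out in turn and under 8 of 9 other settings, the exception being a joining rule of 50% overlap, where it was 1.30 ± 0.60 (SE, adjusted p = 0.274). With peaks of −log10 q of at least 5 it was 0.74 (adjusted p = 0.00738). In Fbxl5-deleted mice it passed under 4 of 9 other settings and was lost with the full lists (adjusted p = 0.185), 50% overlap (0.341), no filter on libraries (0.142) and the enrichment covariate (0.334). It was 1.04 without the 2 libraries that stood apart, with an adjusted p of 0.145, and the call was also lost without standard-diet library 1 or 2 or any 1 of the 3 DDC libraries, with an adjusted p of at most 0.123. The difference between the 2 genotypes' diet effects was -0.61 ± 0.34 (adjusted p = 0.868).

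Acadm encodes the mitochondrial medium-chain acyl-CoA dehydrogenase. Its start region (chr3:153943899-153945133), which holds the promoter printed above, was strong and even, with means of 3.47 ± 0.18 in Fbxl5-deleted DDC, 3.70 ± 0.21 in Fbxl5-deleted standard-diet, 3.49 ± 0.20 in control DDC and 3.42 ± 0.09 in control standard-diet libraries (SD, n = 3 each). Neither diet difference passed there. Both regions that did lay inside the gene and were lower on DDC in controls.

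The first Acadm region lay 6835 bp from the start (chr3:153937327-153937808). Values of 2.84, 2.87 and 3.07 were found in Fbxl5-deleted DDC libraries and of 3.10, 3.83 and 3.53 in Fbxl5-deleted standard-diet libraries. Control DDC libraries had 3.18, 2.75 and 2.69, and control standard-diet libraries 3.88, 4.05 and 3.38. The diets did not overlap in either genotype. The difference was -0.56 ± 0.21 in Fbxl5-deleted mice (SE, limma, adjusted p = 0.161) and -0.89 ± 0.21 in controls (adjusted p = 0.0122), where it was lost without standard-diet library 1 or 2 or DDC library 2 or 3 (adjusted p at most 0.0778). It held under 6 of 9 other settings.

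The other Acadm region, the strongest of that gene, lay 14512 bp from the start (chr3:153929484-153930131). Fbxl5-deleted DDC libraries had 3.50, 3.33 and 3.33, against 3.94, 4.00 and 3.76 in Fbxl5-deleted standard-diet libraries. Control DDC libraries had 3.44, 3.24 and 3.52, against 4.00, 3.99 and 3.67 in control standard-diet libraries. All 6 DDC libraries lay below all 6 standard-diet libraries. The difference was -0.51 ± 0.14 in Fbxl5-deleted mice (SE, limma, adjusted p = 0.0562) and -0.49 ± 0.14 in controls (adjusted p = 0.0437), on either side of the threshold. In controls the call was lost without standard-diet library 1 or 2 or DDC library 1 or 2 (adjusted p at most 0.179), and it held under 3 of 9 other settings.

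Ehhadh encodes the bifunctional enzyme of peroxisomal beta-oxidation. Its start region (chr16:21787273-21788339) had means of 3.22 ± 0.16 in Fbxl5-deleted DDC, 3.34 ± 0.23 in Fbxl5-deleted standard-diet, 3.10 ± 0.06 in control DDC and 3.26 ± 0.04 in control standard-diet libraries (SD, n = 3 each), with no difference that passed. The region that passed lay far from it, 15601 bp downstream of the gene (chr16:21745154-21745684). It had values of 2.06, 1.92 and 1.47 in Fbxl5-deleted DDC libraries, against 3.48, 3.05 and 2.70 in Fbxl5-deleted standard-diet libraries. Values in control DDC libraries were 1.36, 1.43 and 1.89, against 3.32, 2.62 and 2.25 in control standard-diet libraries.

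At this Ehhadh region every DDC library was below every standard-diet library. The difference was -1.25 ± 0.30 in Fbxl5-deleted mice (SE, limma, adjusted p = 0.0232) and -1.17 ± 0.30 in controls (adjusted p = 0.0200). In Fbxl5-deleted mice it was -1.23 without the 2 libraries that stood apart (adjusted p = 0.201), and the call was also lost without standard-diet library 1 or 2 or DDC library 2 or 3 (adjusted p at most 0.101). In controls the call was lost without standard-diet library 1 or DDC library 1 or 2 (adjusted p at most 0.117). Under 9 other settings it passed in 3 in Fbxl5-deleted mice and in 4 in controls. With −log10 q of at least 5 it was -0.48 in Fbxl5-deleted mice (adjusted p = 0.166) and -0.25 in controls (adjusted p = 0.508). With the full lists it was -0.78 in controls (adjusted p = 0.156), where the median of all tested regions was 0.26.

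Cyp4a14 encodes a cytochrome P450 of fatty acid omega-oxidation and is known as one of the most inducible targets of PPAR-alpha in mouse liver. It had the fewest tested regions, 5. Among the strongest regions within 1 kb of each gene's start its own was the weakest (chr4:115496005-115496372), and 7 of 12 libraries held it. The 3 control DDC libraries held it, and 1 of 3 Fbxl5-deleted DDC, 2 of 3 Fbxl5-deleted standard-diet and 1 of 3 control standard-diet libraries did. A stronger region held by all libraries lay 1077 bp beyond the same end of the gene (chr4:115497235-115498074, mean 3.35). The reference table gives no strand for Cyp4a14 or Angptl4, so both ends of each were treated as possible starts.

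The Cyp4a14 region with the smallest p for the diet lay 17734 bp beyond the higher-coordinate end (chr4:115513892-115514535). It had 3.56, 3.56 and 3.70 in Fbxl5-deleted DDC libraries and 3.52, 3.52 and 3.60 in Fbxl5-deleted standard-diet libraries. In control DDC libraries it had 3.31, 3.37 and 3.69, and in control standard-diet libraries 3.68, 3.73 and 3.75. The diets overlapped in both genotypes, and the control difference of -0.27 ± 0.14 (SE, limma) had an adjusted p of 0.288. On the standard diet all Fbxl5-deleted libraries lay below all control libraries. The smallest adjusted p of any Cyp4a14 region between genotypes on that diet was 0.755 in limma. At an unadjusted p under 0.05, 0 of the 5 Cyp4a14 regions differed between diets in either genotype.

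Pdk4 encodes pyruvate dehydrogenase kinase 4, which shuts off the use of glucose carbon when fat is burned. Its start region (chr6:5495875-5496871) had the smallest spread within groups of the 8 start regions, with means of 3.49 ± 0.06 in Fbxl5-deleted DDC, 3.68 ± 0.06 in Fbxl5-deleted standard-diet, 3.49 ± 0.12 in control DDC and 3.48 ± 0.08 in control standard-diet libraries (SD, n = 3 each). The 2 Pdk4 regions that passed did so in controls, in opposite directions, and lay upstream of the gene.

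The nearer Pdk4 region, 2340 bp upstream (chr6:5498618-5499205), was lower on DDC in controls. It had 2.16, 1.73 and 2.00 in Fbxl5-deleted DDC and 2.35, 2.07 and 1.81 in Fbxl5-deleted standard-diet libraries, which overlapped. Control DDC libraries had 1.74, 1.60 and 1.45, against 2.48, 2.57 and 2.86 in control standard-diet libraries, which did not overlap. The difference was -0.11 ± 0.25 in Fbxl5-deleted mice (SE, limma, adjusted p = 0.853) and -1.04 ± 0.25 in controls (adjusted p = 0.0149). The call in controls was lost without standard-diet library 3 or DDC library 2 or 3 (adjusted p at most 0.0716). It held under 4 of 8 other settings. With the full lists the difference was -0.67 (adjusted p = 0.252), where the median of all tested regions was 0.26.

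The farther Pdk4 region, 13015 bp upstream (chr6:5509293-5510243), was higher on DDC in controls. Fbxl5-deleted DDC libraries had 3.66, 3.93 and 3.83, and Fbxl5-deleted standard-diet libraries 3.61, 3.82 and 3.54, which overlapped. Control DDC libraries had 4.04, 4.02 and 3.96, against 3.19, 3.45 and 3.52 in control standard-diet libraries, which did not overlap. The difference was 0.15 ± 0.14 in Fbxl5-deleted mice (SE, limma, adjusted p = 0.608) and 0.62 ± 0.14 in controls (adjusted p = 0.00856), and in controls it passed with each library left out in turn and under 6 of 9 other settings. It was lost with no filter on libraries (adjusted p = 0.0618) and with the enrichment covariate (0.102), and with 50% overlap it was -0.47 (adjusted p = 0.827), in the other direction.

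The diet difference in Fbxl5-deleted mice minus that in controls was 0.92 ± 0.36 at the nearer and -0.47 ± 0.20 at the farther Pdk4 region (SE). The unadjusted p-values of that difference were 0.0172 and 0.0258 and the adjusted p-value was 0.847 for both in limma, so neither passed.

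**Figure D3:**
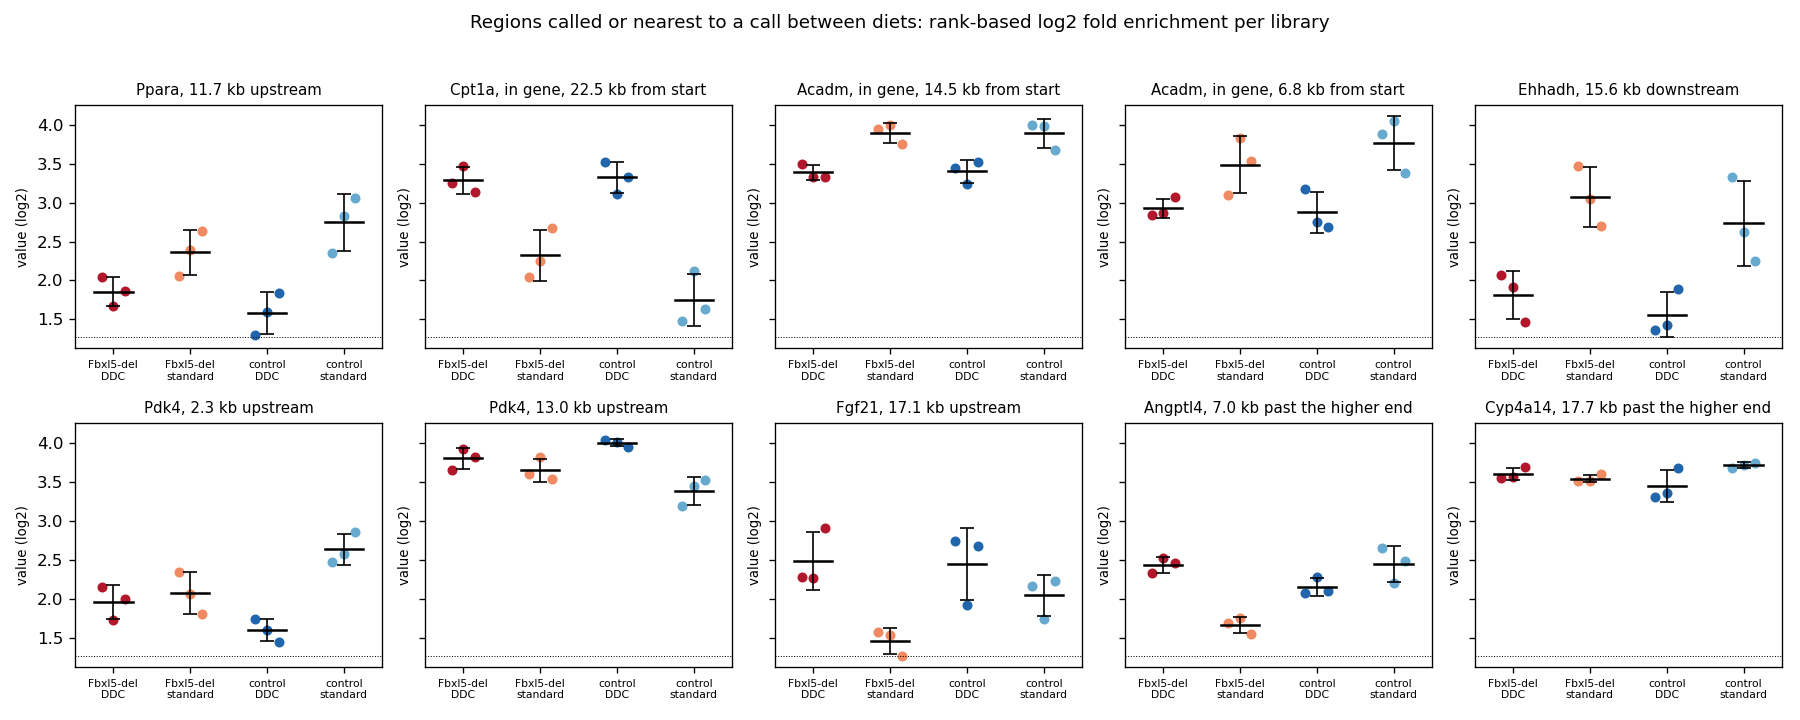
Value (rank-based log2 fold enrichment, vertical axis) per library in the 7 regions with an adjusted p under 0.05 for the diet and in the region with the smallest p of Fgf21, Angptl4 and Cyp4a14. Points are libraries, lines are the mean ± SD of 3, and dotted lines mark the lowest value. In the Cpt1a panel the 6 DDC libraries lie between 3.12 and 3.52, above the standard-diet libraries at 1.48 to 2.68.

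Fgf21 encodes a hormone that the liver secretes in fasting. Its region 543 bp upstream had means of 3.16 ± 0.20 in Fbxl5-deleted DDC, 3.17 ± 0.16 in Fbxl5-deleted standard-diet, 3.24 ± 0.16 in control DDC and 2.90 ± 0.33 in control standard-diet libraries (SD, n = 3 each), and the region over the start itself passed in neither genotype (adjusted p = 0.750 and 0.371). The Fgf21 region with the smallest p for the diet lay 17061 bp upstream, inside the neighbouring gene Rasip1 (chr7:45632551-45632881). It had 2.28, 2.27 and 2.92 in Fbxl5-deleted DDC libraries, against 1.58, 1.54 and 1.27 in Fbxl5-deleted standard-diet libraries. These did not overlap, while the control groups, at 2.74, 1.92 and 2.68 on DDC and 2.17, 1.75 and 2.23 on standard diet, did. The difference in Fbxl5-deleted mice was 1.03 ± 0.28 (SE, limma, adjusted p = 0.0504), just short of the threshold, and 0.95 without the 2 libraries that stood apart (adjusted p = 0.336).

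Angptl4 encodes a secreted inhibitor of lipoprotein lipase. The stronger of the regions at its ends (chr17:33781087-33781715) had means of 2.56 ± 0.18 in Fbxl5-deleted DDC, 2.90 ± 0.44 in Fbxl5-deleted standard-diet, 2.38 ± 0.29 in control DDC and 2.68 ± 0.07 in control standard-diet libraries (SD, n = 3 each), with no difference that passed. A region 7020 bp beyond the same end (chr17:33788595-33789197) had the smallest p. It had 2.33, 2.52 and 2.46 in Fbxl5-deleted DDC libraries, 1.70, 1.76 and 1.55 in Fbxl5-deleted standard-diet libraries, 2.07, 2.29 and 2.10 in control DDC libraries and 2.65, 2.21 and 2.49 in control standard-diet libraries. The Fbxl5-deleted standard-diet libraries were the lowest 3 of the 12, and libraries 1 and 3 of that group are those that stood apart.

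At this Angptl4 region the diet difference was 0.77 ± 0.24 in Fbxl5-deleted mice (SE, limma, adjusted p = 0.0844) and -0.30 ± 0.24 in controls (adjusted p = 0.520). The 2 differences themselves differed by 1.07 ± 0.34, with an unadjusted p of 0.00463 and an adjusted p of 0.847. Fbxl5-deleted minus control on the standard diet was -0.78 ± 0.24 (adjusted p = 0.342). Of the genes' 103 regions this one had the largest difference between genotypes on the standard diet in size, and it did not pass. With the full lists the diet difference here was 0.48 in Fbxl5-deleted mice (limma, adjusted p = 0.462). The difference between the genotypes' diet effects was then 0.39 (adjusted p = 0.746), where its median over all tested regions was -0.36.

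**Figure D4:**
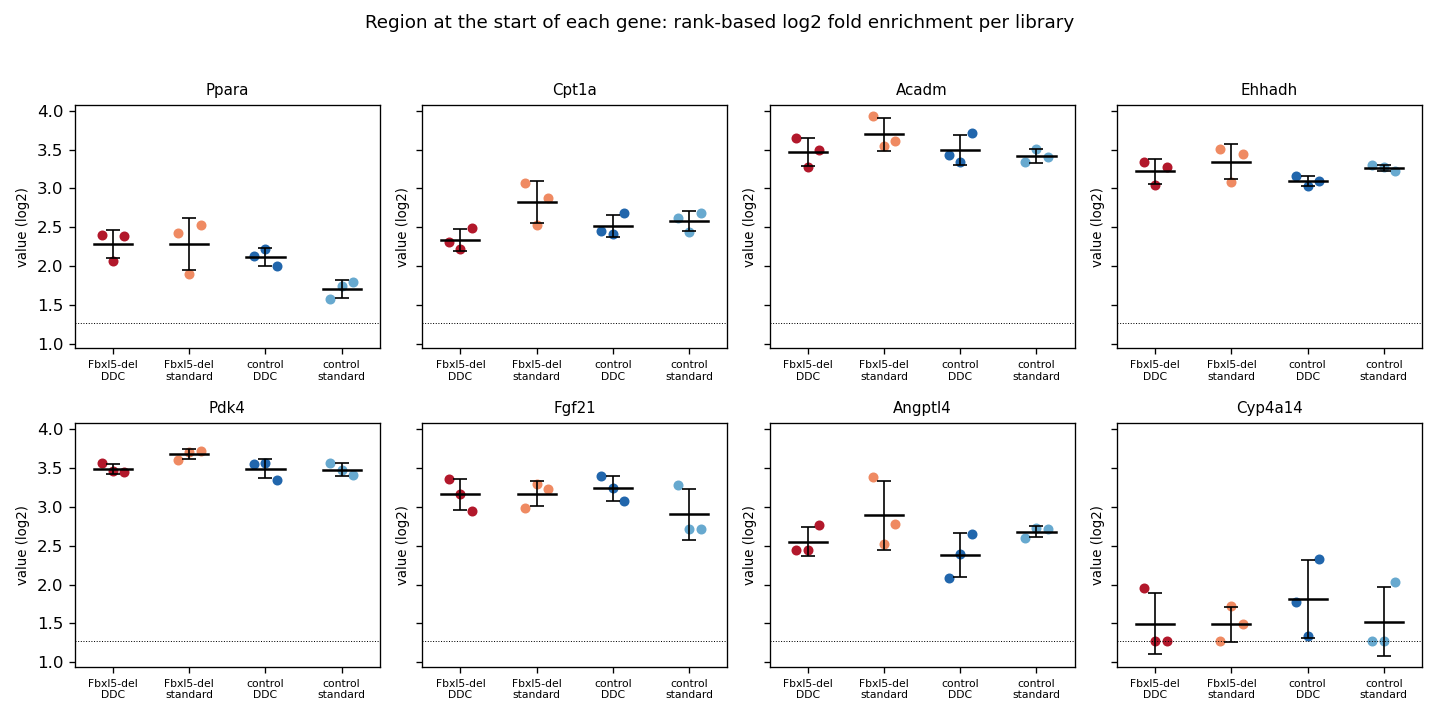
Value (rank-based log2 fold enrichment, vertical axis) per library in the strongest region within 1 kb of each gene's start. Points are libraries, lines are the mean ± SD of 3 in each group, and dotted lines mark the lowest value, 1.27. Acadm, Ehhadh and Pdk4 lie above 3 in each library, Ppara lies between 1.57 and 2.53, and 5 Cyp4a14 libraries lie at the lowest value.

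None of the 8 start regions passed for the diet or the genotype in limma. Ordered by mean over 12 libraries, their start regions ran from Pdk4 (3.54) and Acadm (3.52) through Ehhadh (3.23), Fgf21 (3.12), Angptl4 (2.63), Cpt1a (2.57) and Ppara (2.10) to Cyp4a14 (1.58). With the 50% overlap rule the Fgf21 region averaged 2.00, just below Ppara at 2.02, and the order of the others was kept. Pdk4 and Acadm lay closer to each other than the SD within a group, and so did Ehhadh and Fgf21, and Angptl4 and Cpt1a.

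Between genotypes 0 of the 103 regions passed in limma, on DDC or on the standard diet. The background was 0% on DDC and 0.000722% (1 region of 138538) on the standard diet. At an unadjusted p under 0.05, 4 member regions (3.88%) differed on DDC and 9 (8.74%) on the standard diet, against 5.94% and 8.09% of all tested regions. The strong region inside Cpt1a 31047 bp from its start (chr19:3353373-3354342) was among both. It had 3.78, 3.80 and 3.63 in Fbxl5-deleted and 3.11, 3.35 and 3.32 in control libraries on DDC, without overlap, and 3.72, 3.92 and 4.00 in Fbxl5-deleted and 3.58, 3.70 and 3.23 in control libraries on the standard diet, also without overlap. The differences were 0.48 ± 0.15 and 0.38 ± 0.15 (SE), with adjusted p-values of 0.523 and 0.515, and the region was chosen after its values were seen.

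The test of the difference between the diet effects of both genotypes passed in 0 of 103 member regions by limma and in 0 (0%) of all tested regions. At an unadjusted p under 0.05 it took 7 member regions (6.80%), against 5.87% of all.

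Presence in the lists gave few clear changes. Of the 103 regions, 2 were held by 3 of 3 Fbxl5-deleted DDC libraries and 0 of 3 on the standard diet, 1 showed the opposite, and in controls 1 was held by each of the 3 DDC libraries and by 0 of 3 on the standard diet, while 3 showed the opposite. The shares held on DDC alone were 1.94% in Fbxl5-deleted mice and 0.971% in controls, against 2.50% and 3.89% of all tested regions. Those held on the standard diet alone were 0.971% in Fbxl5-deleted mice and 2.91% in controls, against 0.640% and 1.79% of all. All were weak regions, none of which passed the test of its value. In the full lists, the region 1910 bp beyond the higher-coordinate end of Angptl4 (chr17:33783485-33783697) was in 3 of 3 DDC and 0 of 3 standard-diet lists in both genotypes. Its adjusted p in limma was 0.185 in Fbxl5-deleted mice and 0.319 in controls. The share of all tested regions with this pattern in the full lists was not computed. Full lists of controls were longer on DDC (179740 to 202912 peaks) than on the standard diet (137034 to 151836). Those of Fbxl5-deleted mice held 168993 to 191743 peaks on DDC and 151137 to 262080 on the standard diet.

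The wider pathway was read from 8 lists with 79 genes, of which 78 had a tested region within 20 kb and together 1141 regions. On DDC 15 of these were higher and 9 lower in Fbxl5-deleted mice (2.10%, against 3.17% of all tested regions), and 31 were higher and 31 lower in controls (5.43%, against 7.02% of all). In controls omega-oxidation genes had 1 higher and 5 lower of 52, fatty acid uptake and activation genes 7 and 8 of 191, receptors and their partners 15 and 9 of 380, and carnitine shuttle genes 4 and 3 of 114. Mitochondrial oxidation genes had 2 and 2 of 145, peroxisomal genes 2 and 2 of 119, ketogenesis genes 0 and 1 of 61, and other known targets 0 and 1 of 79.

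In Fbxl5-deleted mice receptors and partners had 10 higher and 4 lower, uptake and activation genes 3 and 2, omega-oxidation genes 1 and 2, and mitochondrial oxidation genes 1 and 1. No region of the carnitine shuttle, peroxisomal, ketogenesis or other target lists passed there by limma, and 13, 8, 5 and 6 of them (11.4%, 6.72%, 8.20% and 7.59%) had an unadjusted p under 0.05, against 17.4% of all tested regions.

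The single regions of this wider set named next were picked from those that passed, so their sizes do not describe the set. A region 2620 bp downstream of Aldh3a2, the fatty aldehyde dehydrogenase, was higher on DDC by 1.31 ± 0.28 in Fbxl5-deleted mice (SE, limma, adjusted p = 0.0122) and by 1.80 ± 0.28 in controls (adjusted p = 0.000481). Acsl1, the main long-chain acyl-CoA synthetase of liver, had a region inside the gene that was higher by 0.58 ± 0.12 in Fbxl5-deleted mice (adjusted p = 0.0108) and by 0.72 ± 0.12 in controls (adjusted p = 0.000903). Pparg, the related receptor known for fat storage, had a region 10486 bp upstream that was higher by 1.67 ± 0.27 in controls (adjusted p = 0.000725), held on DDC by 3 of 3 libraries and on the standard diet by 0 of 3 in both genotypes. In Acacb, which makes the malonyl-CoA that inhibits CPT1, a region differed in controls by -1.42 ± 0.19 (adjusted p = 0.000107). Ppargc1a, the coactivator of PPAR-alpha in fasting, had regions of both kinds. Inside the gene the difference was -0.99 ± 0.22 at one region in Fbxl5-deleted mice (adjusted p = 0.0163) and -0.88 ± 0.17 at another in controls (adjusted p = 0.00279). A region 13856 bp downstream was higher on DDC by 1.13 ± 0.26 in Fbxl5-deleted mice (adjusted p = 0.0190) and by 1.12 ± 0.26 in controls (adjusted p = 0.0113), and one 1805 bp downstream was higher by 0.94 ± 0.25 in controls (adjusted p = 0.0246).

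The pathway regions whose profile over 12 libraries was most like that of the Cpt1a region that rose on DDC lay inside Slc27a2, a fatty acid transporter (root mean square difference 0.32 on the log2 scale after centring), and 9117 bp upstream of Prkaa1, a catalytic subunit of AMP-activated kinase (0.35). The median over all pathway regions was 0.76. For the Ehhadh region the nearest were in Acot12 (0.35), in Acacb (0.37) and in Ncoa2 (0.37), against a median of 0.71. For the farther Pdk4 region they were in Rxra, the partner of PPAR-alpha (0.10), downstream of Mlycd (0.13) and in Ncoa1 (0.14), against a median of 0.36. All of these were picked as the closest of the pathway regions, so their place below the median was fixed by the choice. Regions outside the pathway were not compared, and a link between these genes was not tested.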

How the data were processed

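Per the submitters' processing notes, the tools were MACS2, Bowtie2, fastp, Picard, SAMtools, deepTools and bedtools, and the build was mm10. The sources used here give no versions, order, settings or shift of reads for the transposase. The deposited peak lists, 1 per library and not pooled, give the authors' fold enrichment (a ratio over background in the same library), the −log10 p and q values and a score. The lowest deposited −log10 p was 1.30, a p-value of 0.05. The fold enrichment ranked the peaks, the −log10 q entered 1 alternative and the score entered none. Read counts are absent from these lists, so depth is unknown. Precision comes from the spread of libraries within groups, which limma shares over the 4 groups and adjusts with the spread of other regions.

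The strongest 137034 peaks of each list were merged where they overlapped by 1 bp (292665 regions). Regions held by at least 3 of 12 libraries were tested. Ranks within a library were replaced by the mean log2 fold enrichment at that rank over libraries, and absent regions took the lowest value. Group means of 12 libraries were fitted with limma 3.58.1 (trend and robust, R 4.3.3), with two-sided p-values adjusted by Benjamini-Hochberg over all 138538 regions and a threshold of 0.05. The script was tested on simulated data. Per the labels' protocols each group had 3 mice, and the labels number its 3 libraries without naming the mouse of each. One further marker list is not reported here. Gene spans (without exons) and promoter sequences came from RefSeq (GRCm38.p6). All 8 genes matched, 6 of 8 with a promoter, and 78 of 79 pathway genes.

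For each of the 8 genes the text names the strongest region within 1 kb of the start, each region that passed in any comparison and, where none did, that with the smallest diet p. Of the pathway it names regions among the 5 smallest p-values in each direction. Outside these rules it names the Ppargc1a regions downstream of the gene, the most accessible region of Ppara and the Cpt1a region given for the genotypes. It also names the weak region over the Fgf21 start, the stronger region beyond the end of Cyp4a14 and the Angptl4 region given for its presence. It gives the closest profiles for the Cpt1a, the Ehhadh and the farther Pdk4 region, not for the other member regions that passed. The members, lists and tests were chosen with earlier results of these data known. Alternatives changed the list length, overlap rule, scaling, q threshold, filter, window, covariate, replicate block and libraries used. Same-numbered libraries shared only a number in the labels.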

Additional observations from a re-analysis of the deposited data

How the results depend on the processing

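Member counts depended on how peaks were joined and kept. Beside 2 in Fbxl5-deleted mice and 7 in controls for DDC against standard diet, a 50% overlap rule gave 0 and 0, no filter on libraries 0 and 1, the enrichment covariate 0 and 3, a 5 kb window 1 and 4 and a 50 kb window 5 and 12. In controls the full lists gave 4 and peaks with −log10 q of at least 5 gave 4. In Fbxl5-deleted mice regions in at least 6 libraries gave 5, and 0 passed without the 2 libraries that stood apart. Leaving out 1 library gave 0 to 4 in Fbxl5-deleted mice and 3 to 7 in controls. Genotype and interaction counts of members stayed at 0 in every setting run.

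Pathway counts, 24 in Fbxl5-deleted mice and 62 in controls, became 3 and 24 with 50% overlap, 11 and 31 with the q threshold, 2 and 15 with no filter, and 1 and 20 with the covariate. In Fbxl5-deleted mice they were 12 with the full lists and 5 without both libraries that stood apart. With 1 library left out they were 8 to 25 and 24 to 64. The full lists called 1 pathway region between genotypes on the standard diet.

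Over all regions, 4395 in Fbxl5-deleted mice and 9728 in controls became 1318 and 5197 with 50% overlap, 2470 and 4380 with the q threshold, 1209 and 3311 with no filter, and 425 and 4389 with the covariate. They were 1195 in Fbxl5-deleted mice without both libraries that stood apart, and 2058 to 3993 and 4995 to 10491 with 1 library left out. Between genotypes on the standard diet, 1 region became 165 with the full lists, 149 with 50% overlap, 11 with the q threshold, 0 with no rank mapping, no filter, the covariate, the replicate block or both libraries left out, and 0 to 81 with 1 library left out. On DDC, 0 became 238 with 50% overlap and 0 to 1 with 1 library left out, and the interaction count became 73 with 50% overlap.

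Of 288 values of single member regions under other settings, 13 changed sign. With the full lists these were the Acadm region at 6835 bp (interaction, -0.036), the Angptl4 region (controls, 0.085) and the Cyp4a14 region at 17734 bp (Fbxl5-deleted, -0.046). There the median diet difference of all tested regions was 0.26 in controls and -0.07 in Fbxl5-deleted mice. That of the interaction was -0.36, and that between genotypes on the standard diet 0.26. With 50% overlap they were interactions in Cpt1a (0.094), in Acadm at 6835 bp (-0.27) and at the farther Pdk4 region (1.27), and that Pdk4 region's difference in controls (-0.47, adjusted p = 0.827). Without rank mapping they were interactions in Acadm at 14512 bp (0.026) and at the Ehhadh region (0.050), and the nearer Pdk4 region in Fbxl5-deleted mice (0.13, and 0.036 with the covariate). Without both libraries that stood apart they were the Acadm interaction at 6835 bp (-0.0073) and the farther Pdk4 region in Fbxl5-deleted mice (-0.014). With 1 library left out, the nearer Pdk4 region ran from -0.25 to 0.023 in Fbxl5-deleted mice, the Acadm interaction at 14512 bp from -0.10 to 0.084 and the Ehhadh interaction from -0.38 to 0.16. The causes were not tested.

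With the replicate block 3 member regions passed in Fbxl5-deleted mice and 7 in controls. Same-numbered libraries correlated at -0.024 to 0.056 in their deviations from group means, with 0 of 18 pairs over 0.1, and 8 of 12 libraries correlated best with one of their own number. With −log10 q of at least 5, no tested region overlapped the Ppara region at 11707 bp, the nearer Pdk4 region or the start regions of Ppara and Cyp4a14. The same held for the Fgf21 and Angptl4 regions with the smallest diet p. Peaks held by fewer than 3 libraries may lie there.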
